A study of Homo sapiens with 2 samples.

Results

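The genes considered here are 10 that control entry into and passage through the cell cycle, which are the kinases CDK1, CDK2, CDK4 and CDK6, the inhibitors CDKN1B, CDKN2A and CDKN2B, and the RB proteins RB1, RBL1 and RBL2. They were chosen by name, out of 20050 protein-coding genes of the RefSeq annotation, and a gene was given every peak that lay inside it or within 3 kb of an end. The peaks came from CUT & Tag, which uses an antibody to direct a transposase to a chromatin protein and sequences the fragments cut around it, here with anti-Flag antibodies on 1000000 TFK-1 cells per library. TFK-1 is an established line of extrahepatic cholangiocarcinoma. The LV-HOXA5 cells carried a lentivirus for Flag-tagged HOXA5, a homeobox transcription factor, and the LV-HOXA5-NC cells carried the control lentivirus, so that they held no Flag-HOXA5 by design. Both were puromycin-selected stable cells, and there was 1 library per condition, so no difference between the conditions was tested.

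Cyclin-dependent kinases (CDKs) are switched on by cyclins, and CDK4, CDK6 and CDK2 phosphorylate the RB proteins in G1. The INK4 proteins bind CDK4 and CDK6 and keep cyclin D away from them, while the KIP protein p27 holds cyclin E and cyclin A complexes of CDK2. Unphosphorylated RB proteins sit on E2F factors and keep the genes for DNA replication and mitosis silent, and tumours often lose this arm.

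The LV-HOXA5 list held 8043 peaks from 15778555 fragments, and the LV-HOXA5-NC list held 635 peaks from 1948734 fragments, 12.4% of the depth. Each peak has a pileup, the number of fragments over its summit, and a fold enrichment, the ratio of that pileup to the fragments around it, with 1 added to both. The median LV-HOXA5 peak had a pileup of 17, a fold of 4.82 and a −log10 q-value of 5.57. Intervals given for a pileup are exact 95% Poisson intervals and cover counting error only, since PCR copies and repeat libraries are not represented in them.

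Of the 10 genes, 6 had an LV-HOXA5 peak, namely CDK1, CDK2, CDK4, CDK6, RBL1 and RBL2. This was 60.0% (exact binomial 95% interval 26.2 to 87.8%) beside 20.7% of all protein-coding genes. All 4 kinases had a peak, with 10 peaks between them, 0 of the 3 inhibitors had one, and 2 of the 3 RB proteins had 1 peak each. With peaks at or above the median fold alone, 3 of the 10 genes, CDK2, CDK6 and RBL2, kept one, beside 11.2% of all protein-coding genes. The classes are too small for these counts to separate them, and the genes were picked by name with earlier results known, so no test was made. None of the 10 genes had an LV-HOXA5-NC peak, beside 0.713% of all protein-coding genes, a share at which most sets of 10 genes would have none. None of the 12 LV-HOXA5 peaks overlapped an LV-HOXA5-NC peak, which adds nothing further, since no such peak lay at these genes.

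The 12 peaks were mostly ordinary members of the list. Their pileup ran from 8 to 59 fragments with a median of 17.5, their fold from 3.38 to 8.88 with a median of 4.485, and their length from 277 to 816 bp. A fold at or above the list median was reached by 3 of the 12, at CDK2, at RBL2 and at 1 of the CDK6 sites. The peak at CDK2 stood well above the others on every measure, and that at RBL2 was the next highest in fold.

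**Figure D1:**
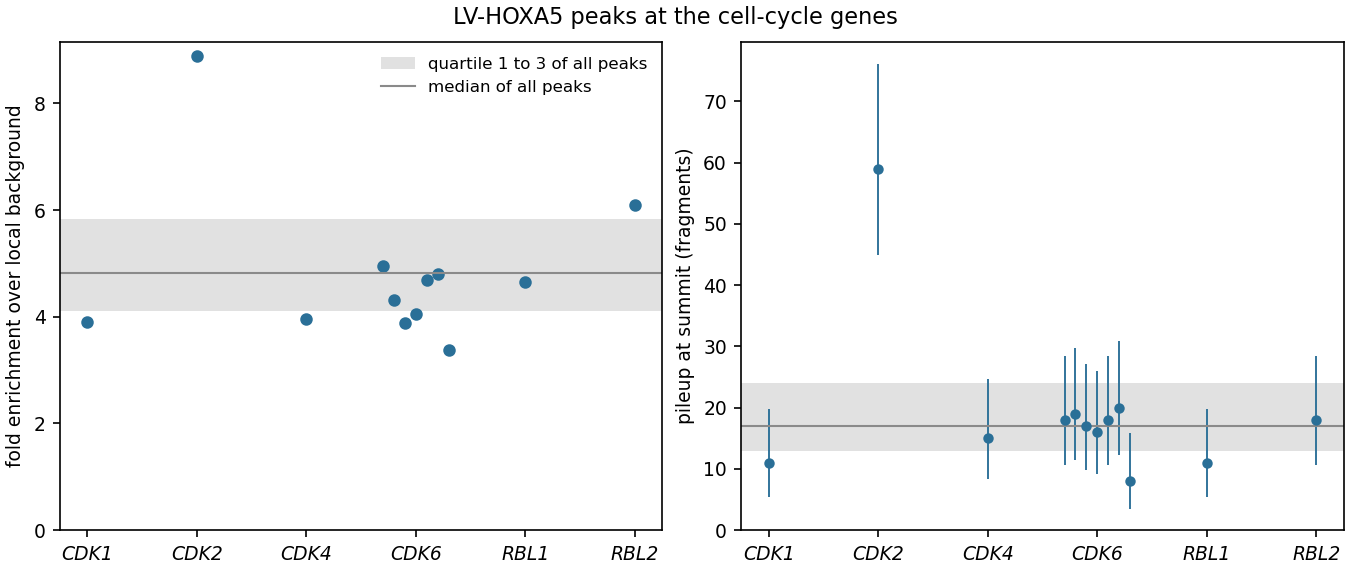
Fold enrichment over local background (left) and pileup in fragments with its exact 95% Poisson interval (right) of each of the 12 LV-HOXA5 peaks, by gene, with the 7 CDK6 peaks in order of position. The line and band mark the median (fold 4.82, pileup 17) and the quartiles (fold 4.1 to 5.83, pileup 13 to 24) of all 8043 peaks, and CDK2, at a fold of 8.88 and 59 fragments, lies far above both bands.

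CDK2 pairs with cyclin E and cyclin A to drive S phase. Its peak was the strongest of the set, with 59 fragments (44.9 to 76.1), a fold of 8.88 and a −log10 q-value of 34.2. By fold it ranked 341 of 8043, above 95.8% of the list. The peak did not touch CDK2, a gene of 5960 bp at chr12:55966830-55972789. It lay 803 bp beyond the higher-coordinate end, at chr12:55973592-55974407, and covered the start of the neighbour RAB5B, which encodes a small GTPase of early endosomes. Its summit was 142 bp before the RAB5B start at position 55973949, and a further RefSeq start of RAB5B at position 55974078 was also covered. The peak was thus shared between both genes, and it sat on starts of RAB5B. The 250 bases before the RAB5B start are shown because all 250 lay under the strongest peak of the set, at chr12:55973699-55973948 on the plus strand of GRCh38.p14, from RefSeq. Capitals mark TAAT, the core read by homeodomains, and CCAAT, the NF-Y box, on either strand.
RAB5B: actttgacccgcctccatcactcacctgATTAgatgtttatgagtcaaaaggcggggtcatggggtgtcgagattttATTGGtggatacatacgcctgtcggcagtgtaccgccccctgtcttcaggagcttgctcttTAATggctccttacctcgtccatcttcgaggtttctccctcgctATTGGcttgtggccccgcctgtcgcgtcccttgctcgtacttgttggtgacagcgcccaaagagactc

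These bases held TAAT at positions −222 and −112 and CCAAT at −173 and −68, counted from the start to the first letter of the match on the gene's strand. The summit fell between the 2 TAAT copies. TAAT was present in 50.2% of all 35116 RefSeq windows of 300 bases, from 250 before to 50 after a start, and CCAAT in 34.6%, so each is common. The local background at the CDK2 peak was 5.76 fragments, 4.01 times the genome level of 1.44, against a list median of 1.77 times.

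CDK1 is the kinase of mitosis, active with cyclin B. Its peak, at chr10:60778389-60778901, lay inside the gene with its nearest edge 58 bp from the first RefSeq start at position 60778331, and it covered a second start at position 60778478. It belonged to no other gene. The pileup was 11 fragments (5.49 to 19.7), the fold 3.9 and the −log10 q-value 2.53, and only 17.4% of the list had a lower fold. CDK1 thus had the peak placed closest to its own start among the kinases, and the weakest of the kinase peaks in −log10 q-value apart from 1 in CDK6. The 250 bases before the first CDK1 start, at chr10:60778081-60778330 on the plus strand, are shown as the sequence just before the peak, of which 0 bases were covered. Capitals mark TAAT, CCAAT and TTTGAA, the letters of the cell cycle homology region found at genes of the late cell cycle.
CDK1: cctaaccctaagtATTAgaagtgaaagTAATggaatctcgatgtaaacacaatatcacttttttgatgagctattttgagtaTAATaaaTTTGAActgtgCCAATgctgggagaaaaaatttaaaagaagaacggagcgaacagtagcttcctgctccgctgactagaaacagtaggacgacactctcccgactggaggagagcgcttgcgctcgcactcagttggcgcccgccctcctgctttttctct

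TAAT stood at −237, −223 and −168, TTTGAA at −161 and CCAAT at −150 of this start. The E2F letters TTTCGCGC, held by 0.515% of all windows, followed at +20. Around the second start, which the peak covered, TTTGAA occurred at −69, −13 and +10 and CCAAT at −78 and −46, whereas TAAT had 0 matches. The peak's summit, 272 bp after this start, and most of its length lay outside the window searched. TTTGAA was found in 15.2% of all windows. These matches describe the letters only.

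CDK4 binds D-type cyclins at the onset of G1 phosphorylation of RB. The gene occupies chr12:57747727-57752310 on the minus strand, and the peak, at chr12:57744965-57745265, lay 2462 bp beyond its 3′ end and 7045 bp from its start. It was the peak closest to the 3 kb limit, and the nearest peak left out was 11.4 kb beyond RBL2, at AKTIP, with a fold of 6.15. The pileup at CDK4 was 15 fragments (8.4 to 24.7), the fold 3.96 and the −log10 q-value 3.51, with a rank of 6471 by fold. The peak covered the start of TSPAN31, a tetraspanin gene that runs towards CDK4 and overlaps it, and its summit was 68 bp before that start. AGAP2, a GTPase-activating protein gene, started 2804 bp away on the other side. As at CDK2, the peak was placed on a neighbour's start. The 250 bases before the TSPAN31 start, at chr12:57744789-57745038 on the plus strand, are shown because 74 of them lay under the peak, with capitals as for RAB5B.
TSPAN31: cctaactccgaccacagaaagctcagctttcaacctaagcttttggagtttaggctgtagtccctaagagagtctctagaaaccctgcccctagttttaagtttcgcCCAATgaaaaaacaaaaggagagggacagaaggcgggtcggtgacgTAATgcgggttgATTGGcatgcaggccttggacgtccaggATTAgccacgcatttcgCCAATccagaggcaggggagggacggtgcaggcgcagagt

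This window held CCAAT at −143, −85, −40 and +1 and TAAT at −97 and −57. With only 74 of the bases before the start covered, TAAT at −97 and CCAAT at −143 and −85 lay outside the peak. The summit fell between the TAAT copies, but at RAB5B both copies were under the peak. CDK4's own window, by contrast, held 0 TAAT and 0 CCAAT but CACGTG, the E-box read by MYC, MAX and MXD1, at −216, −196 and −101. CACGTG was in 7.26% of all windows. No peak lay at that CDK4 start.

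CDK6, the partner of CDK4 in G1, is also the longest of the 10 genes, at 232 kb on chr7:92604921-92836573, minus strand. It held 7 of the 12 peaks. From lower to higher coordinate their pileups were 18, 19, 17, 16, 18, 20 and 8 fragments. Their folds in the same order were 4.96, 4.31, 3.88, 4.06, 4.68, 4.8 and 3.38, with a median of 4.31 under that of the list. All 7 were thus of modest and similar height, apart from the last at chr7:92810283-92810559, whose −log10 q-value of 1.37 was the lowest of the set and whose fold ranked 7593. The highest of the 7 by fold, at chr7:92635135-92635434, ranked 3607, while the highest pileup, 20 fragments, was at chr7:92763691-92764198.

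None of the CDK6 peaks was near its start. The nearest was 26.0 kb from the start at position 92836573, the summits lay 26.3 to 201 kb from it, and the gaps between summits ran from 3.71 to 56.8 kb. The 3 peaks furthest from the start lay inside or within 3 kb of LOC112268009, a long non-coding RNA gene within CDK6, but 16504 to 27236 bp from its start. CDK6 had 2.95 peaks per 100 kb, beside 0.184 per 100 kb over all protein-coding genes of 150 kb or longer. Only 15 protein-coding genes, 0.0748%, had 7 or more peaks, and 12 of the 2043 genes of that length did, 0.587%. The 500 kb on either side of CDK6 held 1 further peak, 0.1 per 100 kb, beside 0.298 per 100 kb over the list as a whole. Peaks were thus dense inside the gene and sparse around it. Local background at the 7 peaks was 1.16 to 2.53 times the genome level, with a median of 2.22. It was above the list median of 1.77 at every one of them but the weakest, where it was 1.16, and its part in the number of peaks was not tested. CDK6's promoter windows, which no peak touched, held TAAT at +6 and CACGTG at +31 of the first start, and TAAT at −89 of a second start at position 92833959.

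**Figure D2:**
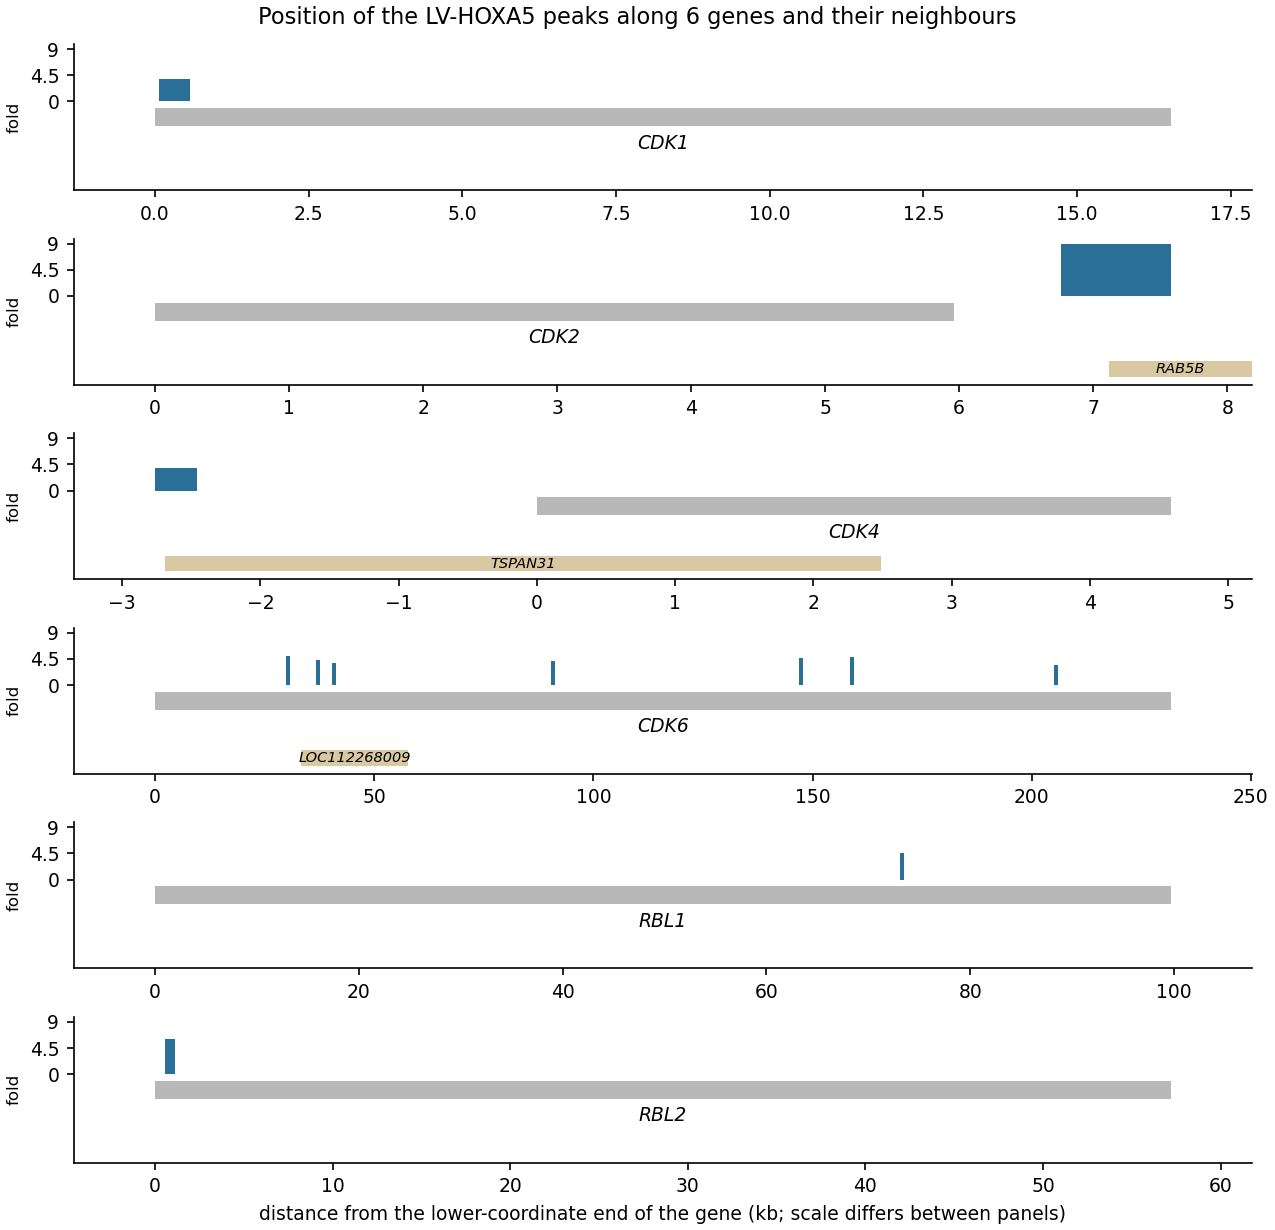
Position of the 12 LV-HOXA5 peaks (blue, height is fold enrichment) along the 6 genes that had one (grey) and the genes that share them (tan), in kb from the lower-coordinate end of each gene. Peaks in long genes are drawn at a minimum width. The CDK2 and CDK4 peaks lie outside the grey bars, at the ends of RAB5B and TSPAN31, and the 7 CDK6 peaks are spread over the gene.

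The inhibitors had no peak in either list. CDKN1B encodes p27, the KIP inhibitor of CDK2. Its nearest LV-HOXA5 peak was 97.4 kb away at DDX47, with 22 fragments and a fold of 5.84, and 280 kb separated the peaks on either side of the gene. Of all protein-coding genes, 45.4% were at least as far from a peak, so CDKN1B was near the middle. The 250 bases before its start, at chr12:12717118-12717367 on the plus strand, are shown for contrast as a window without a peak that holds the same letters. Capitals mark TAAT and CCAAT.
CDKN1B: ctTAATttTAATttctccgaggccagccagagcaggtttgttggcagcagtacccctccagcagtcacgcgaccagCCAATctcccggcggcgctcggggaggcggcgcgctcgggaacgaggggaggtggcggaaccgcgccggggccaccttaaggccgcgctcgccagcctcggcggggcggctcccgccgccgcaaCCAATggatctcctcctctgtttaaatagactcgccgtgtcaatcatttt

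TAAT stood here at −248 and −242 and CCAAT at −174, −50 and +31. The number of TAAT and CCAAT matches, 2 and 3, was the same as in the RAB5B window under the strongest peak. The share of G and C was 64.4% before the CDKN1B start and 54.0% before that of RAB5B.

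CDKN2A encodes the INK4 protein p16 and, from another first exon, ARF, which stabilises p53. CDKN2B, its neighbour, encodes the INK4 protein p15. They share a stretch of 316 kb without a peak on chromosome 9, between a peak at MTAP with 23 fragments and a fold of 6.89 and a peak outside any gene with 25 fragments and a fold of 7.06. The MTAP peak was 135 kb from CDKN2A, and the other was 139 kb from CDKN2B. The flanking peaks were in the upper part of the list by fold, with ranks of 981 and 867. Within 500 kb on both sides of CDKN2A there were 11 peaks, 1.1 per 100 kb. Genes at least as far from a peak made up 38.1% and 37.6% of all protein-coding genes. The first CDKN2A window held 0 of the letters searched, and the second, at position 21974857, held TAAT at −191. CDKN2B held TAAT at −243.

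RB1 encodes the retinoblastoma protein, the main restraint on E2F. It was the furthest of the 10 genes from any LV-HOXA5 peak, although at 178140 bp it was also the longest after CDK6. The nearest peak, at FNDC3A, was 494 kb away, with 9 fragments and a fold of 3.9, and 11.7% of protein-coding genes were at least as far. On the other side no peak was met for 2960 kb, so that RB1 sat within 3630 kb without a peak. For CDK6 and RB1, the pair of members of 150 kb or longer, the outcome was thus opposite.

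RBL1 and RBL2 encode p107 and p130, the RB relatives that bind the repressive E2F factors, p130 mainly in resting cells. RBL2 had the second highest fold of the set. Its peak, at chr16:53435018-53435595, had 18 fragments (10.7 to 28.4), a fold of 6.1 and a −log10 q-value of 7.97, and 79.0% of the list had a lower fold. By fold it ranked 1682, but by pileup 3364, over a local background of 1.47 times the genome level. The peak was inside RBL2 and shared with no gene, 547 bp from the first start at position 53434471 and 24 bp short of a second start at position 53435619. Its summit lay 152 bp before that second start. The 250 bases before it, at chr16:53435369-53435618 on the plus strand, are shown because 227 of them lay under the peak. Capitals mark CCAAT.
RBL2: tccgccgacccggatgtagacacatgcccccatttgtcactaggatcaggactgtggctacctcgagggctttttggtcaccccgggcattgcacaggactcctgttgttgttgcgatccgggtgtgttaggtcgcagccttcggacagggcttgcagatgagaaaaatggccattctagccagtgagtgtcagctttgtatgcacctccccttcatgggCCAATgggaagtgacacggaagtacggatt

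CCAAT at −30 was the only match here, and TAAT had 0. The first RBL2 window held TAAT at −134, outside the peak. Of the 4 peaks at or close to a start, those at the RAB5B and TSPAN31 starts thus had TAAT in the window. Those at the second starts of CDK1 and RBL2 did not, although the windows of their first starts held it, outside the peaks. Most of the CDK1 peak, with its summit, was not searched, so the peaks cannot be divided by TAAT. TAAT was in 50.2% of all windows. The only RB1 window, without a peak, held 4 copies. Its start, at position 48476450, lay near the 3′ end of the gene, which spans 48303751 to 48481890 on the plus strand. The first RB1 start was not listed and was not searched.

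RBL1 spans 99649 bp on the minus strand of chromosome 20. Its peak, at chr20:37069519-37069795, was inside the gene, 26202 bp from the start, and was shared with no other gene. It had 11 fragments (5.49 to 19.7), a fold of 4.66 and a −log10 q-value of 3.61. The peak ranked 4427 by fold, 5980 by −log10 q-value and 6787 by pileup, so that it was near the middle of the list on the first measure and in the lower part on the others. It lay over a background of 1.58 fragments, which was 1.1 times the genome level and the lowest of the 12. RBL1's promoter window, which had no peak, held the E2F letters TTTCGCGC at −26 and TTTGGCGC at −16, found in 0.515% and 0.652% of windows. RBL1 and RBL2 thus differed in where the peak lay, within the gene body for the one and close to a start for the other.

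The 12 peaks differed in their distance to a start. They were taken from inside or within 3 kb of a gene, so this distance was not independent of the choice. The whole list also holds peaks between genes, so its shares are not a like comparison. A listed start was covered by 3 peaks, those at CDK1, CDK2 and CDK4, while the RBL2 peak was within 1 kb of one and the 8 peaks of CDK6 and RBL1 had none within 1 kb. In the whole list 17.1% of peaks covered a start, 9.64% were within 1 kb and 68.7% had none within 1 kb. Their median folds were 4.99, 4.66 and 4.81. The remaining 4.56% of peaks lay on sequences with no listed start. Only 15843 of the 20050 protein-coding genes had a known strand, so a peak at an unlisted start could count as having none. Counted by gene, 3 of the 10 had a peak within 1 kb of either end, CDK1, CDK2 and RBL2, which is 30.0% (6.67 to 65.2%) beside 13.0% of all protein-coding genes. Within 1 kb of the gene's own start there were 2 of the 9 genes with a known strand, CDK1 and RBL2, which is 22.2% (2.81 to 60.0%) beside 13.3% of 15843 genes. As the genes were picked by name with earlier results known, these intervals were not used as a test against the share of all genes.

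Longer genes had a peak more often. The share rose from 11.5% of 5707 genes under 10 kb, through 19.7% at 10 to 50 kb and 27.0% at 50 to 150 kb, to 37.4% of those of 150 kb or longer. These length classes were set after the values were seen. Of the 4 genes under 10 kb, CDK2 and CDK4 had a peak and CDKN1B and CDKN2B did not, and of the next class CDK1 had one and CDKN2A did not. Both genes of 50 to 150 kb, RBL1 and RBL2, had a peak.

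The other genes of the same machinery were placed in 6 lists, and 18 of their 62 genes, 29.0%, had an LV-HOXA5 peak, beside 20.7% of all protein-coding genes. With peaks at or above the median fold alone, the count fell to 8, or 12.9%, beside 11.2% of all protein-coding genes. None of the 62 had an LV-HOXA5-NC peak, beside 0.713% of all protein-coding genes, which says little at that share and depth. Among the other CDKs there were 6 of 17, CDK11A, CDK12, CDK13, CDK14, CDK16 and CDK19. The highest fold of these was at CDK19, a Mediator kinase, whose start was covered by a peak of 19 fragments and a fold of 5.84 that AMD1 shared. Of the 4 other inhibitors, only CDKN2C, the INK4 gene for p18, had a peak, with 10 fragments and a fold of 4.21, 194 bp from its start and shared with FAF1. Of the 10 cyclins, only CCNB2, a cyclin B of mitosis, had one, with 15 fragments and a fold of 4.81 over its start. The D, E and A cyclins of the list had none.

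The list for activation and inhibitory phosphorylation of CDKs, which included the CKS subunits, had a peak in 4 of 8, CKS1B, CKS2, WEE1 and CDC25B. The highest was at CKS2, a small CDK subunit, with 15 fragments and a fold of 5.72 at 1779 bp beyond the gene, shared with SECISBP2. Of 7 genes for turnover, FBXW7 and RBX1 had a peak. FBXW7, the ubiquitin ligase part that recognises cyclin E, had 19 fragments and a fold of 8.2, the highest of the 6 lists, 49834 bp from its start. Of 16 partners of the RB proteins, TFDP2, E2F3, E2F8 and LIN52 had one. LIN52, a subunit of the complex that p107 and p130 join, had 37 fragments and a fold of 7.51 at 60 bp from its start, in a peak shared with ALDH6A1 and BBOF1. Counts by list were small, to be read beside 20.7% of all protein-coding genes, and none was tested.

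**Figure D3:**
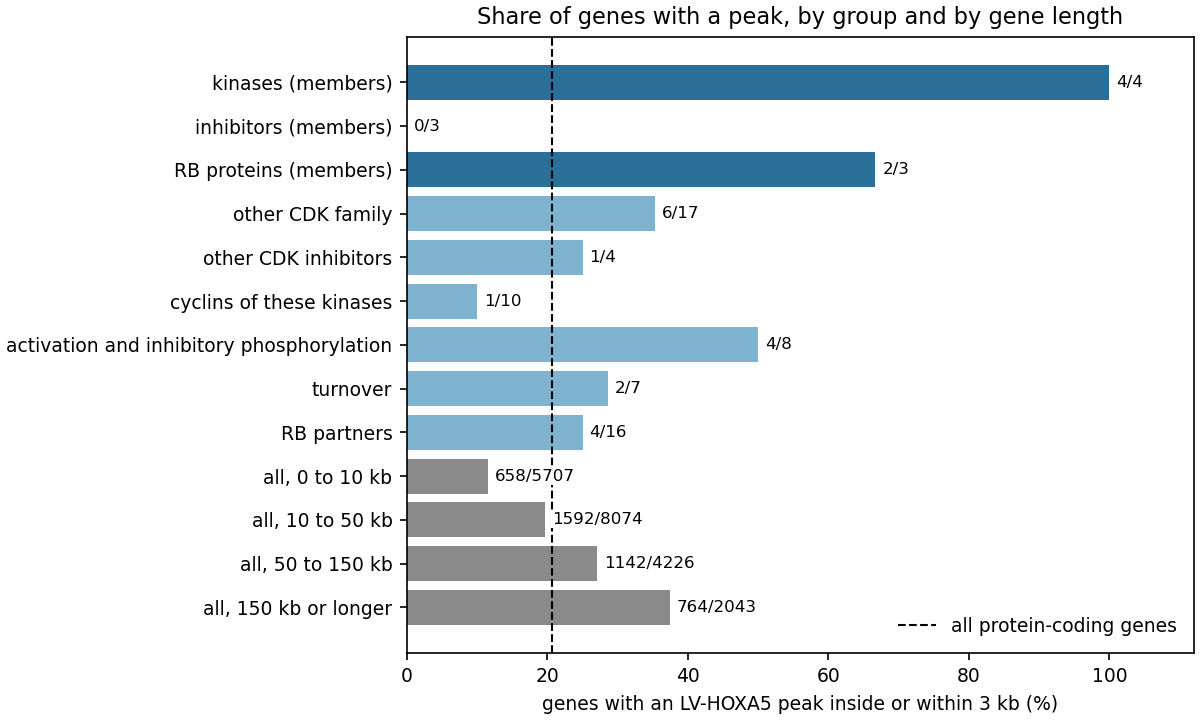
Percent of genes with an LV-HOXA5 peak inside or within 3 kb, for the 3 classes of members (dark blue), the 6 lists of related genes (light blue) and all protein-coding genes by length (grey), with the counts beside each bar and 20.7% for all protein-coding genes as a dashed line. The kinases reach 4 of 4 and the member inhibitors 0 of 3, and the grey bars rise with length from 11.5% to 37.4%.

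The control library bears on these peaks only weakly. Scaled by fragment count alone, with no adjustment for fragment length, the 12 pileups would come to 0.988 to 7.29 fragments. Over the scaled local background, 4 to 7 were needed to reach 5.13, the lowest −log10 p-value in that list. Only the CDK2 peak reached its own limit, at 7.29 scaled fragments with 7 needed. Counting error alone could bring an equal site under it, so the absence of an LV-HOXA5-NC peak at CDK2 was barely informative either. For the other 11 sites, a site of equal strength in the control would have stayed under that limit, so the absence of an LV-HOXA5-NC peak there was not informative at this depth. The nearest LV-HOXA5-NC peak was 0.385 Mb from RBL2, 1.67 Mb from CDKN2A and 1.71 Mb from CDKN2B, and 5.75 to 29.2 Mb from the other 7 genes. Over all protein-coding genes the median distance was 4430 kb in that list and 77.7 kb in the LV-HOXA5 list.

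**Figure D4:**
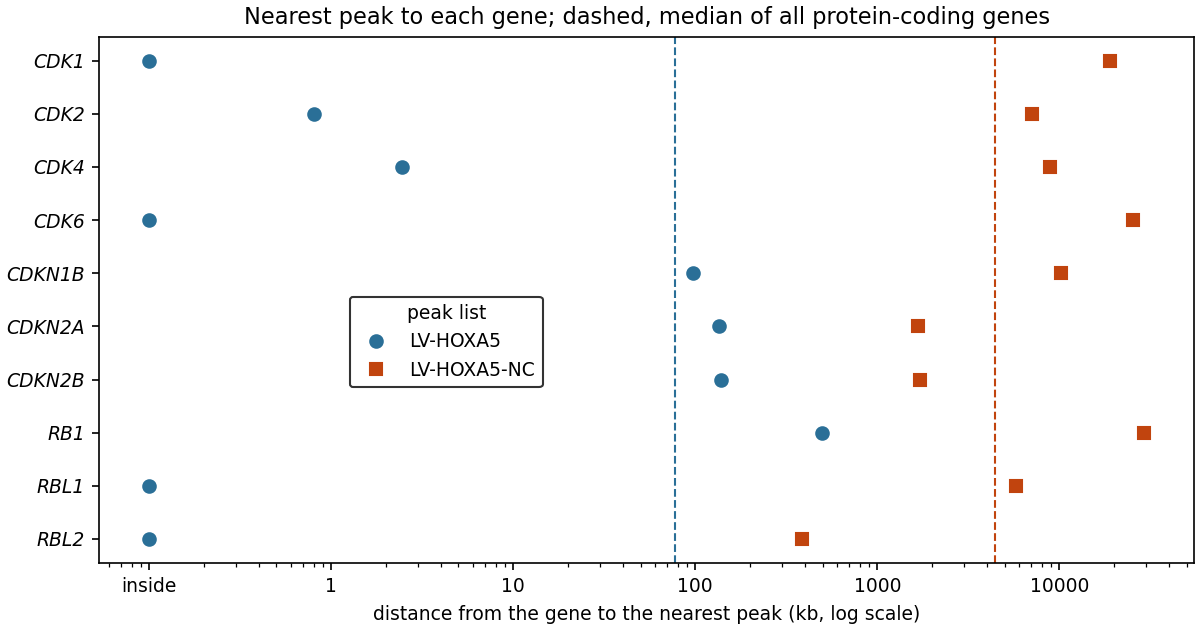
Distance in kb (log scale) from each of the 10 genes to the nearest LV-HOXA5 peak (circles) and LV-HOXA5-NC peak (squares), with genes that hold a peak drawn at "inside" and the medians over all protein-coding genes (77.7 and 4430 kb) dashed. The circles of the 3 inhibitors and RB1 lie at 97.4 to 494 kb, to the right of the LV-HOXA5 median, and the other 6 lie at 2.46 kb or less.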

How the data were processed

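CUT & Tag was done by the authors on 1 LV-HOXA5 and 1 LV-HOXA5-NC library of TFK-1 cells. The submitters' processing notes name fastp, Bowtie2, deepTools, MACS2, ChIPseeker and GRCh38. Per the file headers, MACS 2.2.7.1 called peaks in each library without a control at a q-value of 0.05. The deposited tables give the pileup (signal, in unscaled fragments), the fold enrichment (a ratio to local background), −log10 p-values and q-values, and a score made from the q-value. Both deposited forms held the same 8043 and 635 peaks.

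Here peaks were placed on the RefSeq GRCh38.p14 gene table by any overlapping base, with Python 3.11.15, pandas 2.3.3 and SciPy 1.17.1, and placement was tested on simulated data. The table lists no strand, so strand and starts came from the RefSeq promoter windows, which did not list CDK2 or the first start of RB1. Motifs were searched on both strands. Beside those named above, TAATTA (which contains TAAT) and the E2F letters TTTCCCGC were searched. They had 0 matches in the windows of RAB5B, TSPAN31 and the members other than CDK2, beside 4.84% and 1.63% of all windows. The members and lists were chosen with earlier results of these data known. All members, all genes sharing their peaks and the highest fold of each list were named. Exact Poisson and Clopper-Pearson 95% intervals cover counting error only. Alternatives changed the peak threshold, distance, part of the peak, ranking and genes counted.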

Additional observations from a re-analysis of the deposited data

How the results depend on the processing

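Of 56 values recomputed under an alternative, 45 stayed within 1.5 times the value reported (percent of all genes, within its interval) and 11 moved. The 45 include counts of 0 that could not rise under a stricter setting, so they overstate stability. The fall from 6 to 4 members, for peaks inside the gene only, also counted as having stayed. Keeping peaks at or above the median fold left 3 members with a peak (CDK2, CDK6 and RBL2), 3 peaks at the members, 8 genes of the lists and 11.2% of protein-coding genes. The percent of protein-coding genes was 17.9% at a q-value of 0.001 or less, 19.6% within 1 kb, 22% within 5 kb, 15.7% inside the gene only and 11.3% over all genes of the table. CDK1 was lost at a q-value of 0.001 or less, CDK4 within 1 kb, and both CDK2 and CDK4 inside the gene only, which left 4 members. By pileup RBL1 ranked 6787 and RBL2 3364. No member gained an LV-HOXA5-NC peak, and no overlap appeared, under any alternative run. This says little, as only 0.713% of all protein-coding genes had an LV-HOXA5-NC peak in the main setting. No paired analysis was possible because there was 1 library per condition. The limits are depth, with pileups of 8 to 20 fragments at 11 of the 12 peaks, and the lack of replicates.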
